A study of Mus musculus with 27 samples.

Results

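The comparison is that of macrophages stimulated with lipopolysaccharide (LPS) for 4 h with untreated macrophages, described across genes. The table holds 45070 genes, and 12032 of them, those with a normalised read count of 10 or more in 3 or more of the 6 samples, entered the test. The same filter over the 27 samples of the series would keep 13901. The cells were bone marrow-derived macrophages (BMDMs), grown in culture from the marrow of wild type male C57/BL6 mice, and all of them, the untreated ones included, had been kept for 1 h in DMSO, a solvent. The 3 LPS samples then received 10 ng/ml of E. coli LPS for 4 h and the 3 untreated samples received no stimulus. By the labels, no group was kept for 4 h without stimulus. Effects of LPS and of time since the DMSO step can therefore not be told apart. Further comparisons used the 3 samples after 2 h of LPS and the 3 samples after 4 h of interleukin-4 (IL-4), also at 10 ng/ml. The mice were 6 to 8 weeks old, and nothing states how many gave marrow or whether replicates were separate cultures, so p-values measure only the spread between these samples, which may be technical. Chromatin-associated RNA was measured, the RNA still bound to chromatin, which is rich in transcripts under synthesis and in introns. The values therefore stand closer to transcription than to the stock of mature messenger RNA.

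LPS is a component of the outer membrane of Gram-negative bacteria. It is recognised by the receptor TLR4, whose adaptors MyD88 and TRIF lead to the NF-kB, AP-1 and IRF transcription factors. Inflammatory cytokines, enzymes and feedback inhibitors are among the first targets, while secreted type I interferon acts back on the same cells through STAT and IRF factors and turns on a set of antiviral genes. Macrophages are also known to change their metabolism and to leave the cell cycle upon such stimulation.

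The 6 libraries differed in ways that touch some of the results. Replicate 1 stood apart in both groups: among the 656 genes whose mean reached 1000, log2 ratios had an SD of 0.158 between LPS replicates 2 and 3, of 0.183 between untreated replicates 2 and 3, and of 0.367 to 0.472 for the pairs that include replicate 1. Mitochondrial genes held 0.285% and 0.797% of the values in the LPS and untreated replicate 1 and between 2.67% and 3.90% in the other samples. The sum of normalised read counts was 3874798 ± 49482 with LPS and 2539544 ± 45883 without (SD, n = 3 each). The authors scaled the values on genes judged invariant, so these sums are not sequencing depths, and the depth behind each value is unknown. All 10 macrophage markers were detected in both groups, with summed levels of 12873 to 19854 with LPS and 10064 to 11202 without. Markers of other cells were low. The T and NK cell markers summed to between 0 and 13, those of B cells to between 8 and 37 and those of mast cells and basophils to between 1 and 9 in any sample, with Cd3e and Fcer1a among those at 0 in all 6. Neutrophil markers summed to 54 to 117 with LPS and 15 to 29 without, with Ly6g at 0, and their part in the results was not tested. The proteasome genes Psma7 and Psmc5 were also at 0 in all 6, so a 0 may mean a gene not counted. Dendritic cell markers summed to 437 to 587 with LPS and 43 to 64 without, of which Bst2, also an interferon-stimulated gene, made up 406, 519 and 536 with LPS. In bulk samples fewer cells of a type and less RNA per cell cannot be told apart.

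Most of the genes that could be tested differed between LPS at 4 h and untreated cells. At an adjusted p of 0.05 in limma, 3466 genes were higher and 4789 lower at 4 h, which is 28.8% and 39.8% of the tested genes and 68.6% together. The 3 LPS samples did not overlap the 3 untreated samples in 8734 genes (72.6%). The sizes were alike in both directions, with a median log2 fold change of 1.54 among the genes that rose and −1.55 among those that fell. At the upper end the rises outnumbered the falls: 213 genes rose and 103 fell by at least 5 on the log2 scale. The balance of directions depends on the scaling, since over all tested genes the deposited values gave a median log2 fold change of −0.22. With median-of-ratios factors that median moved to 0.0042, and 4131 genes were higher and 4126 lower. With equal totals it moved to −0.81, and 2322 genes were higher and 7045 lower. Rises made up 41.99%, 50.03% and 24.79% of the calls under these 3 scalings, so list medians are to be read against −0.22. List counts are likewise to be read against the 28.8% of all tested genes that rose and the 39.8% that fell.

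The filter itself favours change at low levels. Of the tested genes, 958 passed in all 3 LPS samples and not in all 3 untreated ones, and 1984 the other way round, so a list count over tested members leaves out members that were low throughout and is given only as a description. Fold changes are on the log2(value + 1) scale, which understates the change of low genes. All p-values below are limma's after Benjamini-Hochberg adjustment over the 12032 genes.

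The inflammatory cytokines, the signals by which a macrophage recruits and instructs other cells, moved from near silence to high levels. Tnf, the gene of tumour necrosis factor, had 1155, 1166 and 1029 normalised read counts in LPS replicates 1 to 3 and 4, 9 and 8 in untreated ones, which is a rise of 7.19 ± 0.25 on the log2 scale (± SE, adjusted p = 7.5e-08). Il1b, which encodes interleukin-1β, had 1647, 1525 and 1241 against 6, 9 and 24, and Il6 had 401, 398 and 366 against 0, 1 and 0. The groups lay far apart for all 3 genes, and the LPS replicates were within a narrow range of each other. Il27, a cytokine that restrains T cells, rose by 8.18 ± 0.20, from 3, 5 and 3 to 1200, 1338 and 1447. Il1rn, the antagonist of the interleukin-1 receptor, rose by 8.79 ± 0.46 with a lower replicate 1, having 533, 1621 and 1610 against 3, 1 and 1. Il12b, the shared subunit of interleukin-12 and interleukin-23, was at 0 in all untreated samples and at 47, 42 and 30 with LPS, which is at least 13.2-fold higher against a floor of 3 per library. Il10, the chief anti-inflammatory cytokine, rose too, from 7, 4 and 11 to 114, 126 and 167.

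Of 32 listed cytokine genes 23 were tested, and 17 rose and 6 fell, with a median log2 fold change of 4.85. Several members that fell are growth factors. Igf1, insulin-like growth factor 1, fell from 2149, 1237 and 1418 to 147, 109 and 164 (−3.49 ± 0.22), and Hgf, hepatocyte growth factor, by 3.37 on the log2 scale, from 183, 317 and 313 to 21, 26 and 27. The log2 fold changes of Tgfb1, Il16 and Pdgfb, which also fell, were −1.59, −1.63 and −0.99. Vegfa fell as well, with 54, 18 and 17 against 131, 91 and 65, without overlap but with a high replicate 1 in both groups, and this call was lost without replicate 2 (adjusted p = 0.078). The gene of interferon-β, Ifnb1, was listed at 0 in all 6 samples, and Csf2 and Csf3 never exceeded 2, which is too low for a comparison.

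Chemokines, which attract leukocytes, behaved in the same manner. Ccl5 showed the second largest fold change of all protein-coding genes, with 3186, 3393 and 3318 normalised read counts against 1, 2 and 0 (10.83 ± 0.35). Cxcl10, a target of interferon that attracts T cells, had 1313, 1661 and 1579 against 3, 3 and 2 (8.70 ± 0.18). Both genes were close to 0 without LPS in every sample. Cxcl11 was at 0 in all untreated samples and at 342, 575 and 750 with LPS, at least 185-fold higher. Of 26 listed chemokines 17 were tested, and 14 rose and 1 fell (median 5.08). The exception was Ccl25, with 84, 102 and 104 against 155, 149 and 172, while Ccl6 and Pf4 did not pass, at −0.71 and −0.80. Cxcl1, an early neutrophil attractant, was below the filter, with 11, 10 and 3 against 0, 0 and 0.

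**Figure D1:**
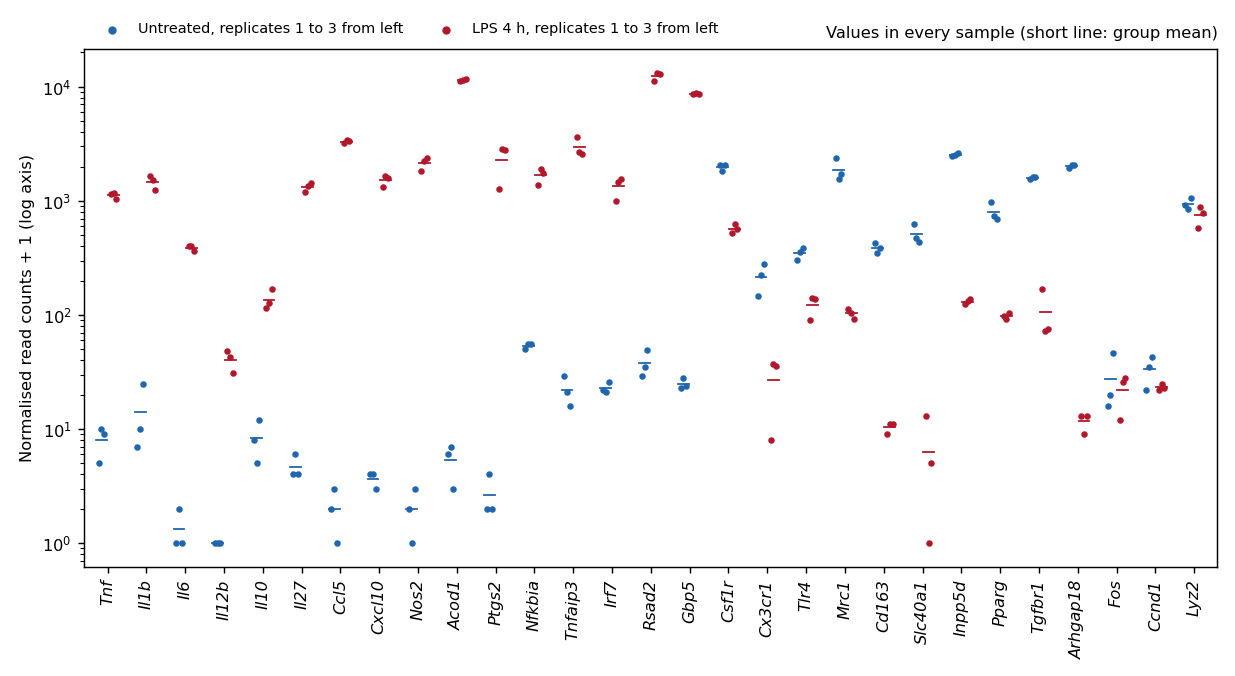
Values of named genes in each of the 6 samples as normalised read counts + 1 on a log axis, with untreated samples in blue, LPS 4 h samples in red, replicates 1 to 3 from left to right and the group mean as a short line. Cytokines, chemokines, effector enzymes and interferon-stimulated genes on the left separate by up to 3 orders of magnitude, Csf1r to Arhgap18 lie lower with LPS, and Fos, Ccnd1 and Lyz2 overlap or nearly touch.

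The NF-kB genes encode the transcription factors of the response as well as the IkB proteins that hold them in the cytoplasm. All 11 listed genes were tested and 10 rose, with a median of 2.82. The inhibitor Nfkbia rose most, from 49, 55 and 55 to 1365, 1904 and 1762 (4.95 ± 0.14, adjusted p = 3.1e-08), followed by Nfkbiz, from 199, 202 and 233 to 3243, 3694 and 3373. Of the subunits, Nfkb2 rose by 3.15, Rel by 2.82, Nfkb1 by 2.8 and Rela, the p65 subunit, by 0.95. Nfkbid did not pass, with 95, 109 and 113 against 76, 109 and 110.

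Feedback inhibitors rose alongside: 19 of the 25 tested of 28 listed were higher and 4 were lower (median 2.18). Tnfaip3, which encodes the ubiquitin-editing enzyme A20, had 3609, 2666 and 2574 against 28, 20 and 15 (7.09 ± 0.22), and Tnip3, the gene of an A20-binding protein, had 21691, 28568 and 29384 against 226, 265 and 299 (6.65 ± 0.15). Socs3, an inhibitor of cytokine receptor signalling, reached 392, 463 and 426 from 3, 2 and 5. The groups were far apart in each of these 3 genes. Zfp36, whose product destroys cytokine messenger RNA, rose by 2.86 ± 0.22 from a higher starting level of 188, 194 and 328. The inositol phosphatase Inpp5d (SHIP1), also known as a brake on TLR4 signalling, went the other way, from 2499, 2507 and 2620 to 123, 131 and 136 (−4.28 ± 0.10), and Rgs2, Dusp6 and Sh2b3 fell with log2 fold changes of −3.28, −3.21 and −1.6.

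Stretches of promoters are shown here because NF-kB is known to act on these genes from sites close to their starts. Each window is 40 bases of the GRCm38.p6 reference from RefSeq, written 5′ to 3′ on the strand of the gene, and capitals mark a match to GGGANTTTC or GGAANTTCC, 2 spellings of the NF-kB site, on either strand. The first base of the match lies 29 bases before the start of Nfkbia, 24 before that of Tnfaip3, 96 before Cxcl2, 44 before Il6, 85 before Acod1 and 158 before Cxcl10. Capitals mark only that match. The Nfkbia and Cxcl2 windows also hold an overlapping match to GGGANTTTC, which begins 28 and 97 bases before the start.
Nfkbia (chr12:55492652-55492691, minus strand): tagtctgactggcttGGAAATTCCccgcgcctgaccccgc
Tnfaip3 (chr10:19015411-19015450, minus strand): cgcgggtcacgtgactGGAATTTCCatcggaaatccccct
Cxcl2 (chr5:90903788-90903827, plus strand): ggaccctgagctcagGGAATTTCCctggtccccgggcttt
Il6 (chr5:30013055-30013094, plus strand): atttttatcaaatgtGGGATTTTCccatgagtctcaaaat
Acod1 (chr14:103046912-103046951, plus strand): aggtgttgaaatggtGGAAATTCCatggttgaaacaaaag
Cxcl10 (chr5:92349023-92349062, minus strand): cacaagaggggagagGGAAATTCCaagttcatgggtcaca

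A promoter window from 250 bases before to 50 bases after a start was given for 9455 of the 12032 tested genes. Either NF-kB spelling was found in 1.94% of all 32851 promoters of the table and in 1.98% of those of tested genes. It was found in 4.6% of the promoters of genes that rose by 3 or more on the log2 scale and in 1.73% of those that fell as much. Among the lists, 4 of 12 chemokine promoters, 3 of 12 of the NF-kB system and 3 of 25 of cytokines held it, and none of 41 cell cycle promoters did. Both spellings occurred together in 32 promoters of the table. These shares carry no test, and a match is not evidence of binding.

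The antiviral programme moved in one direction. All 47 tested interferon-stimulated genes of 51 listed rose, with a median log2 fold change of 4.43, and the smallest rise was 1.38, that of Ifi27l2a. Rsad2, the antiviral enzyme viperin, had 11227, 13258 and 13063 normalised read counts against 28, 34 and 48 (8.41 ± 0.18), and Mx1, an antiviral GTPase, had 22585, 21391 and 23450 against 80, 67 and 102 (8.08 ± 0.15). Ifit1, which binds viral RNA, reached 1291, 1248 and 1182 from 7, 8 and 11. In these genes even the lowest LPS sample stood far above the highest untreated one. Isg15, a ubiquitin-like protein, reached 269, 186 and 150 from 3, 1 and 1, and Ifi205, a DNA sensor family member, 2598, 3460 and 3843 from 5, 6 and 4. Ifit3, Ifit1bl1 and Ifi44l were listed at 0 in all samples and Ifit3b at up to 4. Several of these genes have near-identical copies, and reads with several hits were removed by the authors, so counts of Ifit, Ifi200, Oas1, Gbp and Slfn family members are uncertain.

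The same held for the guanylate-binding proteins and immunity-related GTPases, which attack the vacuoles of intracellular microbes. Of 20 listed genes 16 were tested and 15 rose (median 5.21). Gbp5 had very even values, with 8688, 8810 and 8618 against 22, 27 and 23 (8.45 ± 0.11, adjusted p = 2.7e-09). Gbp2 reached 2190, 2571 and 2650 from 10, 19 and 22, and Irgm1 reached 755, 1139 and 1118 from 49, 52 and 64. Gbp8 did not pass, with 28, 29 and 19 against 15, 25 and 11.

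Interferon-stimulated promoters are known to carry the interferon-stimulated response element, whose core GAAANNGAA is marked in capitals in the windows below, again on either strand, with GRCm38.p6 coordinates and the sequence on the gene's strand. The first base of the match lies 84 bases before the start of Ifit1, 72 before that of Isg15, 119 before Rsad2, 58 before Gbp2, 24 before Irgm1 and 213 before Cxcl10. Cxcl10 thus held both kinds of motif within its 250 bases. Capitals mark only the match at the given distance. The Isg15 window also holds overlapping matches that begin 66 and 78 bases before the start, and the Irgm1 window holds 1 that begins 30 bases before.
Ifit1 (chr19:34640790-34640829, plus strand): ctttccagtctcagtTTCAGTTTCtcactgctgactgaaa
Isg15 (chr4:156200866-156200905, minus strand): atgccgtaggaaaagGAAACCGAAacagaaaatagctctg
Rsad2 (chr12:26456547-26456586, minus strand): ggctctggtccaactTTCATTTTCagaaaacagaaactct
Gbp2 (chr3:142620590-142620629, plus strand): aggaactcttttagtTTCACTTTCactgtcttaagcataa
Irgm1 (chr11:48871421-48871460, minus strand): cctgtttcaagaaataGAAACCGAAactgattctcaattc
Cxcl10 (chr5:92349078-92349117, minus strand): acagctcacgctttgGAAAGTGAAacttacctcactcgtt

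The core was present in 8.56% of all promoters and in 7.66% of those of tested genes. It was present in 24 of 43 promoters of the interferon-stimulated list (55.8%), in 8 of 10 of the GTPases and in 5 of 16 of the MHC class I list. It was also present in 11 of 50 promoters of ribosomal protein genes (22%) and in 3 of 12 of the chemokines. Among promoters of genes that rose by 3 or more the share was 17.8%, and among those that fell as much it was 4.83%. The AP-1 motif TGANTCA was present in 7.81% of all promoters, in 5.58% of those of tested genes, in 11.8% of the strongly rising and in 5.82% of the strongly falling set. For the STAT motif TTCNNNGAA, which shared 351 promoters with the interferon core, the shares in the same order were 8.3%, 7.11%, 10.5% and 5.32%.

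The factors that act on these promoters rose as well. Of 16 listed STAT and IRF genes 15 were tested, and 11 rose and 2 fell (median 1.36). Stat2 had 3330, 3631 and 3491 against 194, 225 and 245, and Irf7, the amplifier of interferon transcription, had 988, 1467 and 1557 against 21, 20 and 25 (5.84 ± 0.19). Irf1 reached 757, 491 and 438 from 74, 63 and 65. In contrast Irf3, which is activated by phosphorylation, had 38, 39 and 33 against 47, 38 and 47 and did not pass. Stat6, the mediator of IL-4, fell by 1.20 ± 0.16, and Irf4 fell by 2.14 from 21, 16 and 10. Irf8 rose by 0.56 ± 0.14 with 468, 403 and 386 against 340, 254 and 261, but this small rise became −0.046 with equal totals and was lost without replicate 2 (adjusted p = 0.087) or replicate 3 (0.062).

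Antigen presentation by MHC class I followed. Of the 18 tested of 21 listed genes of the class I pathway 17 rose (median 3.31). The transactivator Nlrc5 had 8272, 8282 and 7473 against 327, 334 and 380 (4.53 ± 0.10), and the peptide transporter Tap1 had 886, 988 and 983 against 42, 45 and 52. The class I heavy chains moved less, H2-K1 by 1.86 and H2-D1 by 1.46, and H2-Q4, H2-Q6 and H2-Q7 were listed at 0. In the class II list, where 8 of 12 genes were tested, 5 rose and 1 fell (median 0.90), or 3 and 2 with equal totals. Its rises were small: Cd74 rose by 1.67 ± 0.34, from 45, 17 and 36 to 122, 86 and 91, and the cysteine protease Ctss by 1.03. The class II transactivator Ciita did not pass, with 61, 24 and 29 against 45, 40 and 46, H2-DMb1 fell by 2.00, and without replicate 2 the number that rose was 3.

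**Figure D2:**
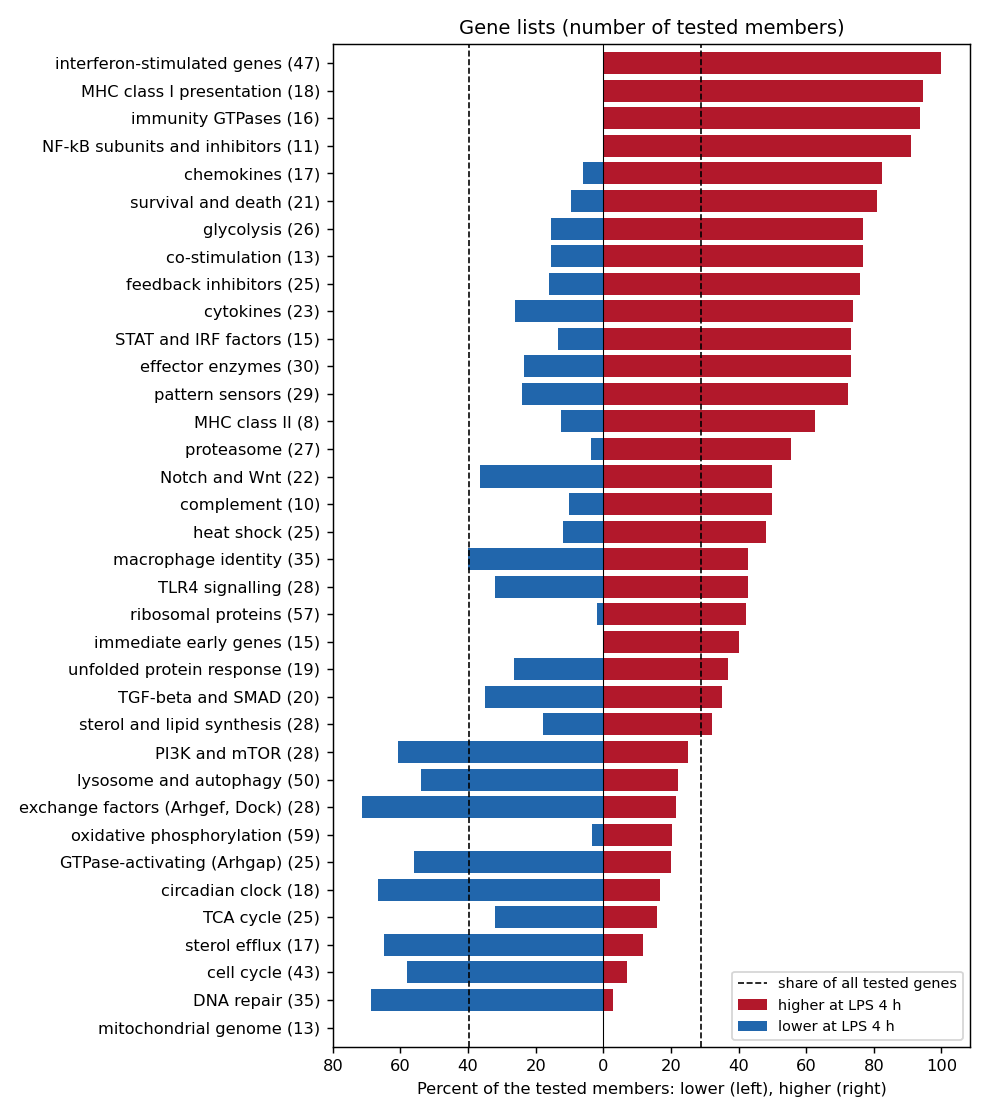
Percent of the tested members of each gene list that were higher (red, to the right) or lower (blue, to the left) at LPS 4 h, with the number of tested members in parentheses and dashed lines at 28.8% and 39.8%, the shares among all tested genes. The interferon-stimulated list stands at 100% higher, the DNA repair list has 1 of 35 members higher and 24 lower, and none of the 13 mitochondrial genes passed.

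The effector enzymes included the largest rise of any gene tested. Acod1, which makes the antimicrobial metabolite itaconate, had 11256, 11459 and 11619 normalised read counts against 5, 6 and 2 (11.16 ± 0.28, adjusted p = 1.8e-08). Nos2, the inducible nitric oxide synthase, had 1820, 2232 and 2357 against 1, 0 and 2 (10.19 ± 0.36), and Ptgs2, the inducible cyclooxygenase, had 1273, 2865 and 2772 against 1, 3 and 1 (9.75 ± 0.38). The 3 genes were all but silent without LPS, and replicate 1 held the lowest LPS value in each. Saa3, an acute-phase protein, was at 0 without LPS and at 696, 894 and 761 with it, at least 261-fold higher. The genes that supply these enzymes rose along with them: the arginine transporter Slc7a2 by 7.02, Gch1, which makes the cofactor of nitric oxide synthase, by 3.92, and Ptges, the prostaglandin E synthase that acts after Ptgs2, by 7.86.

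Of 34 listed effector genes 30 were tested, and 22 rose and 7 fell (median 3.85). Those that fell included genes of other eicosanoid routes. Ptgs1, the constitutive cyclooxygenase, fell from 134, 99 and 67 to 3, 7 and 3 (−4.27 ± 0.37), and Tbxas1, thromboxane synthase, from 3351, 2218 and 2413 to 863, 687 and 752 (−1.77 ± 0.17). The leukotriene genes Alox5ap, Ltc4s and Alox5 fell too (log2 fold changes of −2.89, −2.71 and −1.04), as did Hpgds, a prostaglandin D synthase (−1.42). Hmox1 did not pass, with 96, 75 and 64 against 103, 68 and 92, and Lcn2 was listed at 0.

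The receptor complex and its kinases were split rather than shifted as a whole. All 28 listed genes were tested, and 12 rose and 9 fell, with a median of −0.05, which became 0.18 with median-of-ratios factors and −0.65 with equal totals, where 8 rose and 16 fell. Tlr4 itself fell from 304, 356 and 388 to 89, 141 and 136 (−1.53 ± 0.19). Its co-receptor Cd14 rose from 22, 22 and 30 to 173, 249 and 159, and the adaptor Myd88 from 18, 18 and 16 to 138, 220 and 179 (3.27 ± 0.21). Groups were separate for all 3 genes. Of the kinases, Ikbke rose by 3.55 ± 0.20 and Irak2 by 3.14 ± 0.13, both known as inducible, while Mapk14, the p38α kinase, fell from 917, 867 and 887 to 135, 151 and 134 (−2.66 ± 0.10) and Mapk3, ERK1, from 69, 80 and 87 to 17, 28 and 21. Of the core IKK genes Ikbkb rose by 1.97, and Chuk and Ikbkg did not pass, at −0.07 and −0.02.

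Other pattern sensors mostly rose, with 21 of 29 higher and 7 lower (median 1.36). Clec4e, a receptor for mycobacterial glycolipid, had 1130, 1095 and 1116 against 13, 21 and 21 (5.88 ± 0.19). The inflammasome genes Nlrp3, Casp1, Casp4 and Mefv rose by 2.90, 3.33, 4.25 and 5.02, and the intracellular peptidoglycan sensor Nod2 by 4.04. Tlr3, which recognises double-stranded RNA, rose by 3.81 ± 0.31, from 11, 13 and 23 to 160, 237 and 288. The flagellin receptor Tlr5 dropped to 0 in all 3 LPS samples from 15, 20 and 16. Nlrp1b, Clec7a, the receptor for fungal β-glucan, and Tlr13, which senses bacterial ribosomal RNA, fell as well (−2.87, −2.46 and −1.75), and Sting1 fell by 1.35.

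Some immediate early genes, which respond within minutes, were higher at 4 h. Of 20 listed genes 15 were tested, and 6 rose (40%, against 28.8% of all tested genes), none fell and 9 did not pass, with a median of 0.75. Their summed levels were 1150 to 1485 with LPS against 400 to 552 without, of which Atf3 made up 597, 767 and 801 with LPS. The number that rose was 9 with median-of-ratios factors and 3 with equal totals, where 1 fell. Of all 12032 tested genes, 4131 and 2322 rose under these scalings. Fos had 11, 25 and 27 against 15, 19 and 45 (−0.25 ± 0.47, adjusted p = 0.65), and Egr1, below the filter, had 4, 4 and 8 against 2, 1 and 18. The samples of both groups overlapped in Fos and Egr1. Atf3 rose by 2.75 ± 0.14, from 104, 100 and 113 to 597, 767 and 801, and Junb by 2.37 ± 0.35. Myc, with 12, 25 and 26 against 6, 14 and 9, passed narrowly at 1.04 ± 0.39 (adjusted p = 0.042), although its groups overlap, and was lost without replicate 2 (adjusted p = 0.087) or replicate 3 (0.25).

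Most genes of co-stimulation, and most on a list of survival and death genes, rose. The co-stimulatory receptor Cd40 had 5984, 3975 and 3607 against 44, 27 and 43 (6.85 ± 0.24), the checkpoint ligand Cd274 (PD-L1) had 3438, 3321 and 3572 against 51, 28 and 44, and Cd69 had 647, 1264 and 1170 against 1, 2 and 5. Of 13 tested genes of 16 listed 10 rose and 2 fell (median 3.26), the checkpoint receptors Havcr2 (−3.23) and Vsir (−2.15), while Cd80 did not pass at 0.42. Among 21 tested survival and death genes of 24 listed 17 rose and 2 fell (median 1.64). Traf1 rose by 8.39 ± 0.33 and the BCL2 relative Bcl2a1a by 7.6 ± 0.33. The inhibitors of cell death Birc3 and Cflar rose by 3.02 and 3.31, and the death receptor Fas and Mlkl, the effector of necroptosis, by 3.32 and 3.88. Bcl2, which protects from apoptosis, fell by 1.51, and Bax, with 49, 46 and 44 against 68, 62 and 59, fell by 0.43, a call that was lost with the replicate number as a block (adjusted p = 0.052) and without replicate 1, 2 or 3 (0.053, 0.19 and 0.14). In the complement list C3 rose from 22, 10 and 10 to 2838, 1863 and 1545 (7.16 ± 0.32) and Cfb by 5.58, and C1qa and C1qc did not pass. Of 18 listed complement genes 10 were tested, and 5 rose and 1 fell (median 0.61), against 2 and 3 with equal totals (median 0.00090).

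Macrophage identity genes divided into rising and falling members of similar number. Of 35 tested genes of 40 listed 15 rose (42.9%) and 14 fell (40%), against 28.8% and 39.8% of all tested genes. Their median of 0.10 turned to −0.50 with equal totals, where 13 rose and 18 fell. Csf1r, the receptor for the growth factor on which these cells depend, fell from 2052, 1814 and 2048 to 522, 627 and 566 (−1.79 ± 0.11). Cd163, a scavenger receptor for haemoglobin, fell from 430, 349 and 383 to 8, 10 and 10 (−5.23 ± 0.17), and the mannose receptor Mrc1 from 2386, 1541 and 1708 to 112, 103 and 92 (−4.16 ± 0.17). These receptors were lower in every LPS sample than in any untreated one. Cx3cr1, the fractalkine receptor, fell by 3.25 ± 0.55 with an uneven replicate 1, having 7, 36 and 35 against 147, 221 and 279, and the phagocytic receptor Trem2 fell by 3.24. Opposite to them, the scavenger receptors Marco and Msr1 rose by 7.55 and 3.78, the Fc receptors Fcgr1 and Fcgr4 by 3.79 and 4.24, and Itgal by 3.07. Marco had 620, 149 and 141 against 1, 0 and 0, with replicate 1 well above the others.

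The lineage transcription factors were divided likewise. Spi1, the PU.1 factor that defines myeloid cells, rose from 503, 448 and 474 to 1924, 1527 and 1354 (1.74 ± 0.14). Cebpa, a factor of the myeloid lineage, fell by 3.36, from 11, 11 and 14 to 1, 0 and 0. Within the MiT family, Tfec and Mitf rose by 2.03 and 1.13, whereas Tfeb, the regulator of lysosomal genes, fell by 3.14 ± 0.22, from 366, 359 and 294 to 51, 37 and 28. Maf and Lyz2 did not pass, at 0.32 and −0.35. Of the 22 genes listed as marks of alternative activation 11 were tested, and 6 rose, among them Ccl22, Rasgrp1, Flt1 and Il4ra, and 4 fell, namely Cd163, Mrc1, Clec10a and Pparg (median 0.68). Arg1, Retnla and Chil3 did not reach the filter.

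Receptors of TGF-β, which maintains resident macrophages, fell. Tgfbr1 fell from 1570, 1633 and 1604 to 169, 71 and 75 (−4.04 ± 0.29) and Tgfbr2 with a log2 fold change of −1.5. The signal carrier Smad3 fell from 477, 419 and 427 to 45, 28 and 19 (−3.88 ± 0.27), and the inhibitors Smad6, Smad7 and Ski fell too (−3.35, −1.96 and −2.63). Smad4, the partner of the signal carriers, did not pass, with 507, 505 and 488 against 567, 511 and 514. Of 20 tested genes of 22 listed 7 rose and 7 fell (35% each), against 28.8% and 39.8% of all tested genes. The list as a whole had a median of −0.06. With median-of-ratios factors the median was 0.17 and the counts were the same, and with equal totals it was −0.67, and 5 rose and 13 fell. The co-receptor Eng rose by 2.79 and Skil by 1.67.

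Regulators of the small GTPases that act on the actin cytoskeleton fell more often than they rose. Among GTPase-activating proteins 14 of 25 tested of 30 listed fell and 5 rose (median −0.94), and among exchange factors 20 of 28 tested of 30 listed fell and 6 rose (median −0.98). Arhgap18 went from 1945, 2054 and 2080 to 12, 8 and 12 (−7.46 ± 0.17), Arhgap19 from 906, 658 and 583 to 5, 5 and 13 and Arhgap45 from 592, 573 and 505 to 30, 27 and 34. The exchange factors Dock5, Arhgef6 and Dock1 fell as well (log2 fold changes of −4.15, −3.65 and −2.94). Members of the same families also rose: Arhgap17 from 2463, 2369 and 2413 to 5513, 5729 and 5462 (1.21 ± 0.09), Dock4 by 1.15 ± 0.15, Vav1 by 1.08 and Arhgef3 by 2.94.

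Among PI3K, AKT and mTOR genes 17 of 28 fell and 7 rose (median −0.78). Deptor, an inhibitor of mTOR, went from 183, 236 and 259 to 2, 4 and 2 (−5.98 ± 0.28), and the phosphatase Inpp4b from 1626, 1512 and 1462 to 94, 91 and 82 (−4.09 ± 0.11). The forkhead factors Foxo3 and Foxo1, which AKT restrains, fell with log2 fold changes of −3.57 and −2.03. The adaptor Pik3ap1 (BCAP) rose from 2084, 1624 and 1719 to 14272, 12070 and 11350 (2.8 ± 0.14) and Pik3r5, a partner of PI3Kγ, by 3.21 ± 0.14. The kinase Akt1 fell by 1.65, and Rictor and Mtor rose by 2.15 and 0.98. In the Notch and Wnt list 11 of 22 tested genes of 32 listed rose and 8 fell (median 0.62), or 9 and 10 with equal totals (median 0.02). These counts include Tcf4, a factor other than the Wnt factor Tcf7l2. The PI3K counts include Pdk1, a pyruvate dehydrogenase kinase that is also in the glycolysis list, beside Pdpk1. Notch1 and Notch2 rose by 1.51 and 1.79, and the Wnt co-receptors Lrp5 and Lrp6 fell (−3.57 and −2.67).

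Most glycolysis genes rose. Of 28 listed genes 26 were tested, and 20 rose and 4 fell (median 1.42). Pfkfb3, which makes the activator of phosphofructokinase, had 6145, 6298 and 6122 against 330, 234 and 249 (4.52 ± 0.14), the glucose transporter Slc2a1 had 321, 334 and 315 against 50, 45 and 46 (2.76 ± 0.12) and Hk2, hexokinase 2, 362, 259 and 206 against 99, 85 and 86. The LPS samples lay above the untreated ones without overlap in all 3 genes. Hif1a rose by 1.33, Gapdh by 1.91 and the lactate exporter Slc16a3 by 2.00. Other isoforms of the Pfkfb3 enzyme fell, Pfkfb4 by 1.67 and Pfkfb2 by 1.65, as did Gpi1 by 0.78.

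Some citric acid cycle enzymes were lower with LPS. Of 25 genes 4 rose and 8 fell (32%, against 39.8% of all tested genes), with a median of −0.24 against −0.22 over all tested genes. The counts were 7 and 7 with median-of-ratios factors and 1 and 17 with equal totals. Both isocitrate dehydrogenases that use NADP fell, Idh1 from 253, 225 and 256 to 25, 64 and 36 (−2.63 ± 0.30) and Idh2 from 48, 48 and 57 to 5, 3 and 2 (−3.64 ± 0.31). Fumarase (Fh1) and Mdh1 fell with log2 fold changes of −2.39 and −2.26. The subunits Sdha, Sdhb and Sdhd of succinate dehydrogenase did not pass, with Sdha at 182, 228 and 232 against 210, 213 and 198, and Cs, citrate synthase, rose by 1.05 ± 0.17. Without replicate 2 the number of cycle genes that rose was 2. The nuclear-encoded subunits of oxidative phosphorylation mostly did not pass: 12 of 59 tested of 70 listed rose, 2 fell and 45 did not pass. Their median of 0.25 turned to −0.35 with equal totals, where 5 rose and 16 fell, and without replicate 2 the number that rose was 7. The 13 mitochondrially encoded genes did not pass in either direction, though their summed level ranged from 569 to 7729 between LPS replicates, so a change could hardly be detected.

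Genes of sterol and lipid synthesis moved in both directions, and more genes of cholesterol export fell than rose. Of 28 tested synthesis genes of 37 listed 9 rose and 5 fell, with a median of 0.32 that turned to −0.26 with equal totals, where 7 rose and 11 fell. Without replicate 1 the number that rose was 14, and without replicate 2 the number that fell was 3. The fatty acid desaturase and elongases Fads1, Elovl6 and Elovl5 fell (log2 fold changes of −4.73, −2.3 and −2.0). On the export side 11 of 17 tested of 18 listed genes fell and 2 rose (median −1.33). The exporter Abca1 fell from 2734, 1967 and 1984 to 804, 754 and 867 (−1.45 ± 0.14), the nuclear receptor Rxra from 712, 441 and 434 to 26, 10 and 9 (−5.17 ± 0.38) and Pparg from 986, 742 and 689 to 96, 91 and 103 (−3.03 ± 0.15). Abcg1 did not pass, with 228, 99 and 105 against 194, 177 and 172.

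Lysosomal and autophagy genes were lowered more often than raised, as were all tested genes. Of 50 tested of 53 listed 27 were lower (54%) and 11 higher (22%), against 39.8% and 28.8% of all tested genes (median −0.62). Sgsh, a heparan sulfate hydrolase, went from 122, 132 and 126 to 0, 1 and 3 (−6.00 ± 0.46), and the autophagy kinases Ulk1 and Ulk2 fell (−3.5 and −3.58), from 174, 189 and 206 to 13, 17 and 18 in the case of Ulk1. The proteases Ctsl and Ctsd fell with log2 fold changes of −2.1 and −1.23. Ctsc, which activates serine proteases of immune cells, was an exception with 9285, 11472 and 14620 against 1400, 1535 and 1773 (2.89 ± 0.17), and Ctsz rose by 2.13.

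Genes of protein production and quality control showed small changes, many of which depend on the scaling. For ribosomal protein genes 24 of 57 tested of 79 listed rose and 1, Rpl3, fell. Their median of 0.60 became 0.016 with equal totals, where 6 rose and 6 fell, and 14 rose without replicate 2 and 10 without replicate 3. For the proteasome 15 of 27 tested of 31 listed rose and 1 fell. Its median of 0.46 turned to −0.15 with equal totals, where 5 rose and 7 fell, and 9 rose without either replicate 2 or replicate 3. Psma6 stood above the rest of the proteasome with 412, 643 and 593 against 68, 46 and 67 (3.16 ± 0.21). Of 25 tested chaperone genes of 29 listed 12 rose and 3 fell, with a median of 0.57 that became −0.03 with equal totals, where 8 rose and 7 fell. In the unfolded protein response the stress sensors Ern1 and Eif2ak3 fell (−2.2 and −2.22) while the chaperone Hspa5 rose by 1.87 ± 0.21. There 7 of 19 tested of 25 listed rose and 5 fell (median 0.23, or −0.38 with equal totals, where 3 rose and 9 fell). The number that rose was 11 without replicate 1 and 4 without replicate 2 or 3.

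Cell cycle and DNA repair genes were lower with LPS, but replicate 1 of both groups lay below its fellows in most of these genes. Of 56 listed cell cycle genes 43 were tested, and 25 fell and 3 rose (median −2.46). Pola1, DNA polymerase α, had 18, 22 and 41 normalised read counts with LPS and 283, 1000 and 1023 without (−4.65 ± 0.50), and E2f2, a factor of S phase entry, had 2, 1 and 2 against 34, 88 and 98. Mki67, the proliferation marker, had 177, 198 and 166 against 72, 490 and 429 and did not pass (adjusted p = 0.53), and untreated replicate 1 lay below all 3 LPS samples. Untreated replicate 1 lay below replicates 2 and 3 in 38 of the 43 genes, compared with 44.1% of all tested genes, and its summed level was 2545 against 7503 and 7630. LPS replicate 1 lay below its fellows in 30 of the 43 genes, compared with 44.3% of all tested genes, and in 21 of 35 DNA repair genes. In the LPS samples the sums were 5240, 5082 and 4494, of which Cdk6 made up 2814, 2577 and 2257. By pairs of the same replicate number the median log2 difference was −1.63, −2.68 and −1.90. The number that fell was 36 without replicate 1, 16 without replicate 2 and 16 without replicate 3, and under replicate blocking 30 fell. Without replicate 1 Mki67 passed as lower (adjusted p = 0.00032). After 4 h of IL-4 Pola1 had 288, 355 and 348, also below untreated replicates 2 and 3. Of the 43 genes 22 were lower with LPS than with IL-4 and 6 higher. Among all tested genes these shares were 41% and 27.9%. Whether cell cycle genes fell with IL-4 was not tested.

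The exceptions rose clearly. Ccnd2, cyclin D2, had 709, 535 and 477 against 8, 7 and 10 (5.94 ± 0.21), Cdkn1a, the p21 inhibitor of the cell cycle, 968, 845 and 514 against 70, 91 and 137 (2.96 ± 0.29) and Cdk6 2814, 2577 and 2257 against 834, 548 and 568 (1.99 ± 0.17). Cyclin D1, Ccnd1, did not pass, with 21, 24 and 22 against 21, 34 and 42, except without replicate 1 (adjusted p = 0.03). In the DNA repair list 24 of 35 tested of 38 listed fell and 1 rose (median −1.56). Brca1 had 1, 2 and 6 against 13, 121 and 106, and 6, 32 and 29 after 4 h of IL-4. Of the 35 genes 22 were lower with LPS than with IL-4 and 2 higher. The number that fell against untreated cells stayed between 19 and 26 when a replicate number was left out. The member that rose was Atm, by 0.52, and it turned to −0.090 with equal totals and was lost without replicate 2 or 3 (adjusted p = 0.069 and 0.16).

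**Figure D3:**
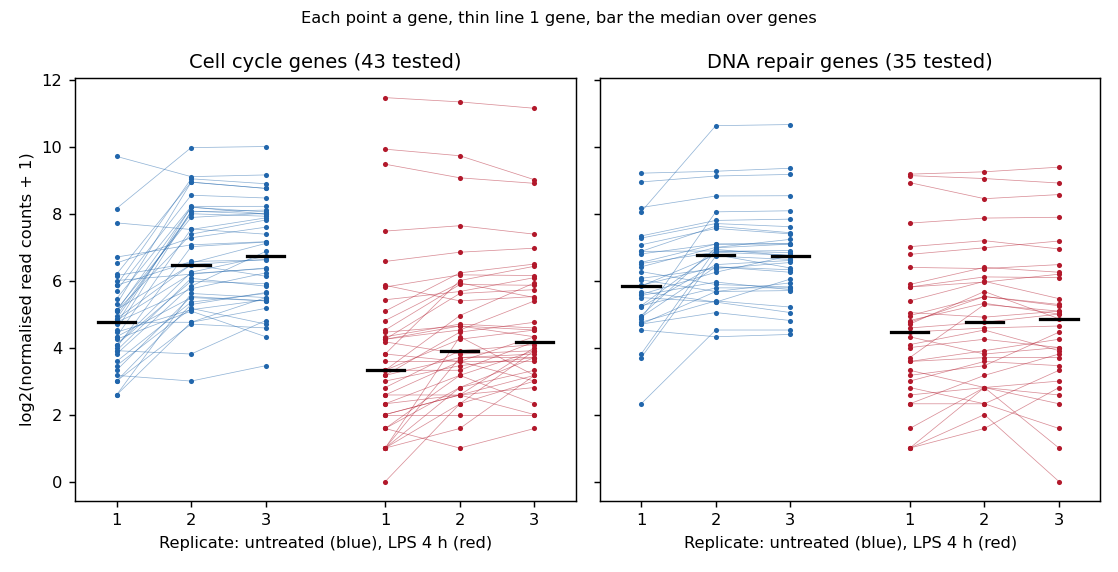
Log2(normalised read counts + 1) of the tested cell cycle genes (left, 43 genes) and DNA repair genes (right, 35 genes) in each sample, with untreated samples in blue, LPS 4 h samples in red, thin lines joining the same gene within a group and black bars at the median over genes. Untreated replicate 1 lies below untreated replicates 2 and 3 in 38 of 43 and 29 of 35 genes.

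Genes of the circadian clock mostly fell. Of 22 listed genes 18 were tested, and 12 fell and 3 rose (median −1.22). The nuclear receptor Nr1d1 (REV-ERBα) fell from 22, 20 and 22 to 2 in each LPS sample (−2.9 ± 0.25), Per1 from 87, 107 and 117 to 15, 24 and 22 and Tef by 3.51. The core activator Arntl (BMAL1) fell by 1.09 ± 0.14. Nfil3, a repressor that also serves in immune cells, rose from 25, 22 and 17 to 131, 123 and 144 (2.60 ± 0.20), and Cry1 and Csnk1d rose by 1.03 and 0.85. The call of Csnk1d was lost with equal totals (0.24, adjusted p = 0.173).

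Among the largest fold changes of single protein-coding genes, the rises were led by Acod1, Ccl5, Nos2, Ptgs2, Fpr2, Saa3, Ifi205, Cxcl11, Tarm1, Slfn4, Slfn1 and Il1rn. Fpr2, a receptor for formylated bacterial peptides, had 840, 1054 and 1178 against 0, 0 and 1. Tarm1, an activating receptor of myeloid cells, was at 0 without LPS and at 447, 532 and 576 with it, at least 173-fold higher. The falls were led by Slco2b1, an organic anion transporter, from 419, 309 and 306 to 1, 0 and 0 (−8.08 ± 0.33). St6gal1, a sialyltransferase, went from 1480, 1199 and 1257 to 6, 6 and 3 (−7.81 ± 0.24) and Fam214a from 596, 588 and 601 to 2 in each LPS sample. Each of these genes went from a clear level to next to none in all 3 replicates. Slc40a1, the iron exporter ferroportin, went from 630, 475 and 431 to 12, 0 and 4, and Lpin1, a phosphatidate phosphatase, from 174, 127 and 137 to 1, 0 and 0. Zfyve28, Slc26a11, Hsf3, Peli2, Cd28 and Slit1 completed the 12 largest falls.

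At 4 h 92 genes were on that had been at or under 3 normalised read counts in every untreated sample, and 51 were off by the same measure with LPS. Of those on, 63 were protein-coding and 13 had 0 in all untreated samples, and of those off 40 were protein-coding and 2 had 0 in all LPS samples. The genes off with the highest untreated level were Fam214a, Slco2b1, Zfp395, Zfyve28 and Rasgrp3. Zfp395 had 1, 2 and 3 with LPS against 245, 230 and 251, and Rasgrp3, an activator of RAS in macrophages, had 2, 1 and 2 against 304, 159 and 171. These classes rest on the value 3, and only 58 and 27 of their members overlap no other annotated gene.

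Summed on the authors' scaling, the genes that rose gained 2037152 normalised read counts and those that fell summed to a difference of −736426. The gap between these sums depends on that scaling, under which all values summed to 3874798 with LPS and 2539544 without (means). A net change of RNA can therefore not be read from them. The 10 largest gains made up 10.6% of the gain and the 100 largest 37.2%. Cers6, a ceramide synthase gene, gained most, from 1675, 1755 and 1716 to 37332, 30755 and 29628 (4.24 ± 0.12), followed by the ubiquitin ligase Rnf213, from 1549, 1250 and 1532 to 33915, 29487 and 27808. Aoah, whose enzyme inactivates LPS by removing acyl chains, rose from 1823, 836 and 928 to 31429, 24943 and 26373 (4.61 ± 0.27). Slco3a1 rose by 7.40 ± 0.25 and Alcam, an adhesion molecule, by 2.45 ± 0.17. The largest loss was that of Slc9a9, an endosomal sodium-proton exchanger, from 14239, 10203 and 10565 to 243, 148 and 174 (−5.96 ± 0.20). Stab1, a scavenger receptor, fell from 9175, 6265 and 6428 to 789, 1158 and 929, and the ubiquitin ligase gene Wwp1 from 5852, 4623 and 4620 to 174, 169 and 154.

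Levels per kilobase of gene span were ranked only among protein-coding genes that overlap no other annotated gene. In this set the levels with LPS were headed by chemokines and interferon-stimulated genes. Ccl4 stood at 1511 normalised read counts per kilobase, Mx1 at 1416, Ccl3 at 993 and Rsad2 at 913. In untreated cells Lyz2, the lysozyme gene, stood at 198 and Grn, progranulin, at 173 per kilobase. The 4 LPS leaders stood at 6.67, 5.23, 13.5 and 2.67 per kilobase without LPS.

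Non-coding transcripts changed in both directions. Of 1819 tested non-coding genes 640 were higher (35.2%) and 627 lower (34.5%), against 28.8% and 39.8% of all tested genes. As many as 1390 of them overlap another tested gene and can share its reads. Of the 313 that overlap no annotated gene 130 were higher (41.5%) and 95 lower (30.4%). AW112010 rose from 2, 1 and 0 to 251, 217 and 246 (7.04 ± 0.39), Gm39086 from 0, 2 and 1 to 211, 116 and 102 and Gm13822 from 0 in every sample to 83, 49 and 55, at least 20.8-fold. 4933406I18Rik fell from 165, 225 and 196 to 1, 2 and 1 (−6.41 ± 0.27). The nuclear architectural RNA Neat1 fell from 9445, 6855 and 7284 to 2179, 1791 and 2312 (−1.90 ± 0.15). Malat1, another nuclear RNA, overlapped between groups with 18739, 12177 and 18424 against 13721, 10675 and 9919. It passed at 0.51 ± 0.20 (adjusted p = 0.048), turned to −0.099 with equal totals and was lost without replicate 1, 2 or 3 (adjusted p = 0.051, 0.062 and 0.39).

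To ask whether 4 h was still a time of change, its samples were compared directly with those after 2 h of LPS. This comparison, like that with IL-4 further on, shares the 3 LPS 4 h samples with the one against untreated cells. Of the tested genes 1600 (13.3%) had risen further and 1503 (12.5%) had declined between 2 h and 4 h. These numbers fell to 593 and 669 without replicate 2 and to 589 and 618 without replicate 3, and were 2068 and 2203 without replicate 1. Nos2 rose further, with 413, 719 and 643 at 2 h and 1820, 2232 and 2357 at 4 h (1.88, adjusted p = 0.00063), as did Saa3, with 71, 80 and 82 at 2 h (3.31), Slfn4, with 243, 191 and 180 (2.93), and Ptgs2, with 354, 708 and 592 (2.03). By contrast Tnf, Il1b, Cxcl10 and Rsad2 did not pass between 2 and 4 h, at −0.44, 0.19, −0.20 and 0.06. Of the 30 tested effector genes 14 were higher at 4 h than at 2 h and 3 lower, and in the NF-kB list 7 of 11 were lower and none higher.

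Other genes stood higher at 2 h than at 4 h. Il12b fell from 175, 164 and 189 at 2 h to 47, 42 and 30 at 4 h (−2.14, adjusted p = 9.3e-07) and Irf1 from 1725, 1413 and 1439 to 757, 491 and 438 (−1.47). Irf8 fell from 1895, 1193 and 1412 to 468, 403 and 386. Hk2 and Cdk6 were also higher at 2 h, with 994, 650 and 692 and with 8350, 7430 and 8506. Maml3 and Elovl6 were above untreated cells at 2 h, with 2133, 1893 and 2393 and with 155, 146 and 285, and below them at 4 h. Among genes that fell, Slc9a9 fell further from 2 h to 4 h, with 5756, 4130 and 4895 at 2 h (−4.72), and St6gal1 likewise, with 34, 37 and 32 at 2 h (−2.60).

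LPS at 4 h was also set against IL-4 at 4 h, the stimulus of alternative activation, with no untreated sample in the comparison. With LPS 3359 genes (27.9%) were higher and 4935 (41%) lower than with IL-4. Mrc1 had 112, 103 and 92 with LPS and 8200, 7113 and 7664 with IL-4 (−6.21), Igf1 had 147, 109 and 164 and 7060, 5266 and 6485 (−5.49) and Ptgs1 had 3, 7 and 3 and 795, 616 and 580 (−7.03). Untreated cells lay between the stimuli in all 3 genes. Cx3cr1 was low with either stimulus, with 7, 36 and 35 after LPS and 16, 16 and 20 after IL-4, and the difference did not pass (0.27, adjusted p = 0.67). Tarm1 and Rasgrp1, at or under 3 in untreated cells, were present with both: Tarm1 had 447, 532 and 576 with LPS and 128, 169 and 163 with IL-4 (1.75), and Rasgrp1 219, 184 and 173 and 405, 504 and 540 (−1.32). All 47 interferon-stimulated genes and all 11 NF-kB genes were higher with LPS than with IL-4. The level of Abca1 after LPS, 804, 754 and 867, stood beside 1032, 584 and 548 after IL-4, a difference that did not pass (0.22, adjusted p = 0.39).

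Some genes that moved alike lay side by side. In the order of tested protein-coding genes along the chromosomes there were 36 runs of at least 6 genes that rose without a break (281 genes) and 85 such runs that fell (598 genes). Of all tested protein-coding genes 27.4% rose and 41.1% fell. The number of runs that such shares alone would give was not computed. The longest, of 17 genes, lies on chromosome 1 between 172475360 and 174248449 (GRCm38) and holds the Ifi200 family from Aim2 to Ifi205, with a median rise of 4.43. On chromosome 11, 12 genes between 82952102 and 83578636 span the Schlafen genes, Ccl5 and Ccl9 with a median of 4.21. A run of 12 on chromosome 5 holds the Oas genes, and 8 neighbours on chromosome 19 between 11375488 and 11604804 are 7 Ms4a genes and Gm8369. Among falling runs, 11 genes on chromosome 11 between 114675468 and 115247025 contain the Cd300 family of immune receptors (median −3.21), of which Cd300a went from 284, 231 and 259 to 9, 4 and 8. Paralogs of a family and overlapping genes can share reads.

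**Figure D4:**
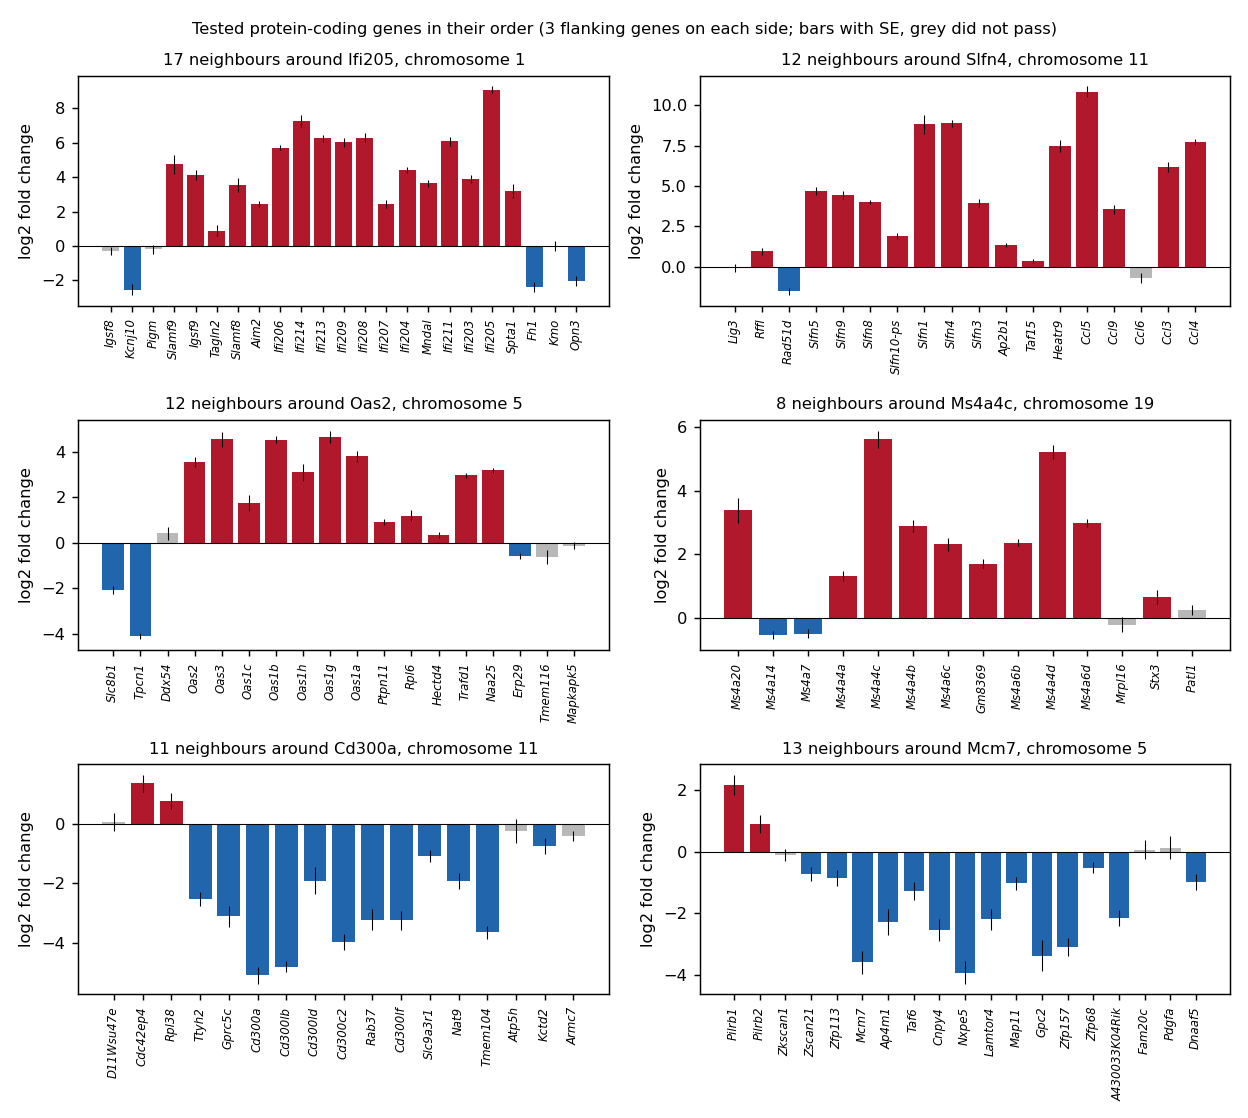
Log2 fold change with its SE for 6 runs of neighbouring tested protein-coding genes and the 3 tested genes on either side, in chromosomal order, with red for higher, blue for lower and grey for did not pass. The run around Ifi205 has 17 rising genes, that around Slfn4 and that around Oas2 have 12 each, and the Cd300a and Mcm7 runs have 11 and 13 falling genes.

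Gene length and chromosome set the frame for such shares. Of protein-coding genes under 5 kb 30.9% rose and 20.3% fell, and of those of 80 to 160 kb 27.1% rose and 50.3% fell. The median untreated level was 19 normalised read counts in the first class and 334 in the second, and its part in the shares was not tested. By chromosome, the share that rose was highest on chromosome 16 (40%), which carries Mx1, Mx2 and Alcam among others, and the share that fell was highest among the autosomes on chromosome 13 (46.9%).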

How the data were processed

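Chromatin-associated RNA of BMDMs was converted to libraries with a Smart-seq2 procedure primed by random hexamers, which does not mark strand, and sequenced single-end. The authors mapped reads to mm10 with TopHat2 2.1.1, removed multi-mapping and blacklisted reads (bedtools 2.29.2) and counted reads per GRCm38.p6 gene. Whether strand entered the counting is not stated, so overlapping and antisense genes can share reads: 4026 tested genes overlap another tested gene. The deposited values are the authors' normalised read counts, scaled on invariant genes and rounded to whole numbers, and were therefore treated as a score, not as raw counts. No count model was applied, depth is unknown, and no counting interval is given.

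A pseudocount of 1 was added, and log2 values were fitted by limma 3.58.1 in R 4.3.3 (trend in the variance, p-values adjusted after Benjamini-Hochberg, threshold 0.05) over genes with at least 10 in at least 3 of the 6 samples. These held 98.8% to 99.5% of the values. The 4 h and 2 h samples were compared in a fit of the 15 samples of the LPS course. LPS and IL-4 were compared at 4 h in a fit of their samples. The impulse model of the study was not run. The script was checked on simulated data. Same-numbered replicates deviated together (correlations of 0.386, 0.105 and 0.261), and the replicate number as a block was an alternative, as were other scalings, filters, pseudocounts, sample sets and leaving out replicates.

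Named genes were 36 fixed genes, the 12 largest rises and falls of protein-coding genes, the 8 largest gains and losses in mean, the 5 largest rises and falls of non-coding genes that overlap no other, the 3 largest called changes in each list with up to 3 against the majority, and the 5 highest of the genes on or off. Ranked genes had to pass 0.05, have a mean of at least 50 in the higher group and not overlap between groups. Other list members are named as examples and were chosen after their values were seen. The gene lists, written from general knowledge, and the members were chosen with earlier results of these data known. Some of the genes named by this rule are not reported here. Promoter sequences are from RefSeq. Columns were matched to samples by their labels.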

Additional observations from a re-analysis of the deposited data

How the results depend on the processing

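Of 228 tested named genes, 225 passed, and 228 kept their direction and their side of the threshold with a pseudocount of 0.5 or of 8, 227 with a replicate block, 226 with median-of-ratios factors, 217 without replicate 2 and 218 without replicate 3. Under equal totals, with and without the mitochondrial genes (the latter chosen after seeing the data), 4 turned: Atm to −0.090 and −0.093, Dlst to −0.074 and −0.076, Irf8 to −0.046 and −0.048 and Malat1 to −0.099 and −0.101, since these scalings lower every log2 fold change. Under both, the calls of Csnk1d, Dld, Fosl2, H2-DMa, Myc, Ndufs8 and Rmrp were lost and Ccnd1 passed as lower, and Cs was lost without the mitochondrial genes. Equal totals also moved the counts of STAT and IRF genes to 8 higher and 3 lower, of chemokines to 14 and 3, of Arhgap genes to 3 and 18, of lysosomal genes to 8 and 37 and of clock genes to 1 and 15, and median-of-ratios factors moved PI3K and mTOR genes to 10 and 15. The counts were 3621 higher and 5005 lower with a replicate block, which changed no named call but that of Bax, and 3453 to 3502 higher and 4772 to 4861 lower with the other pseudocounts. Requiring more than a 2-fold change left 1743 higher and 2178 lower and 274 and 153 of the list members, of which 430 and 253 passed otherwise. Keeping genes that overlap no other left 6097 genes, of which 1727 were higher and 2396 lower, and 136 lower list members. A mean of at least 50 left 6740 genes with 2512 higher and 2516 lower. Equal totals without the mitochondrial genes gave 2308 higher. Leaving out 1 replicate number or 1 library gave 2752 to 3591 higher and 3774 to 4876 lower, and for 4 h against 2 h of LPS 589 to 2068 and 618 to 2203. Depth is unknown, so low values cannot be given a counting error.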

Other observations

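Of 10 genes outside the lists of the report, known as markers of stroma and endothelium, 5 were tested, and 2 were higher with LPS and 3 did not pass. Pdgfrb, a growth factor receptor, had 104, 91 and 68 normalised read counts against 3, 0 and 2 (5.25 ± 0.49) and Pecam1, an adhesion molecule that leukocytes also carry, had 49, 47 and 50 against 5, 7 and 9 (2.67 ± 0.26), both past 0.05 in limma. The groups overlapped in the others, the collagen genes Col1a1 (69, 28 and 11 against 35, 27 and 15) and Col1a2 (105, 42 and 26 against 53, 30 and 22) and the smooth muscle actin Acta2 (18, 6 and 4 against 11, 17 and 13). The summed level of the 10 stromal and endothelial markers was 167 to 350 with LPS and 63 to 108 without, with Lum at 0 in all samples. A part of other cells in these values was not tested.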
